A study of Mus musculus with 33 samples.

Results

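The chemokines Cxcl9, Cxcl10 and Cxcl11 and their shared receptor Cxcr3 were followed in mouse lung as 4 of the 773 genes measured on an nCounter panel, an assay that counts individual barcoded probes bound to RNA. All 4 were found by name in both deposited tables, and all were kept whatever their level. CXCL9, CXCL10 and CXCL11 are small secreted proteins that interferon-gamma induces in many cell types, and type I interferon and NF-kappaB signalling also act on some of them. They bind CXCR3, a G protein-coupled receptor carried mainly by activated T helper 1 and CD8 T cells and by NK cells, and draw these cells into inflamed tissue.

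The study asked whether an adeno-associated virus (AAV) vector could be given again to the lungs of mice deficient in surfactant protein B. All 33 right-lung samples came from CCSP-rtTAtg/(teto)7Sftpb/Sftpb-/- mice of the FVB/N strain, which lack their own Sftpb and carry a copy that doxycycline switches on through the CCSP promoter of airway epithelial cells. At day 97 there were 6 groups of 4 lungs, each 2 female and 2 male. The on-doxycycline group had no vector, and the off-doxycycline group had no vector and lost doxycycline at day 94, so its lungs were 3 days without it. The AAV-hSPB single and AAV-hSPBTLR9i single groups received vector into the trachea at day 0 and lost doxycycline at day 7. The AAV-hSPB repeat and AAV-hSPBTLR9i repeat groups were treated in the same way and received a second dose at day 90, so their lungs were taken 7 days after the last dose. In a second experiment, 3 groups of 3 lungs, each 2 female and 1 male, received PBS (PBS 3 h), AAV-hSPB (AAV-hSPB 3 h) or AAV-hSPBTLR9i (AAV-hSPBTLR9i 3 h) into the trachea and were harvested 3 h later, and the labels do not give the doxycycline status of these mice. The labels do not tie each lung to a separate mouse. A p-value here thus reflects only the spread between samples, which may in part be technical.

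Total recovered counts ran from 597788 to 1131011 per lung at day 97 and from 1156612 to 1710291 at 3 h. Background, set for each day 97 lung from its dimmest control probes, lay between 3.77 and 4.93 on the log2 scale. The measured lung epithelial markers, Cdh1 and Ager, had a summed log2 level of 14.12 to 14.92 at day 97 and were above background in every lung. On-doxycycline replicate 1 stood apart, with a summed log2 level of liver markers of 15.55 against 9.31 to 9.75 in the other lungs of its group. The day 97 table lists the 12 lungs of the AAV-hSPBTLR9i single group and both repeat groups first, and the 12 lungs of the on-doxycycline, off-doxycycline and AAV-hSPB single groups second. The labels do not say whether these sets were run apart.

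The ligand genes lie side by side on mouse chromosome 5 within 41966 bases, in GRCm38.p6, the assembly of the RefSeq table used here. Cxcl9 spans bases 92321331 to 92328079, Cxcl10 spans 92346638 to 92348889 and Cxcl11 spans 92359544 to 92363296. Cxcr3 lies on chromosome X from 101731535 to 101734147. RefSeq lists Cxcl11 as a transcribed pseudogene in this assembly, which is of another strain than the mice studied. The 250 bases before the start of Cxcl9 (chr5:92328080-92328329, minus strand), Cxcl10 (chr5:92348890-92349139, minus strand) and Cxcr3 (chrX:101734148-101734397, minus strand) are shown because Cxcl9 and Cxcl10 varied together from lung to lung within groups, and no such relation passed for Cxcr3. Capitals mark matches, on either strand, to the core of the interferon-stimulated response element (GAAA, any 2 bases, GAAA), the gamma-activated site TTCNNNGAA or the kappaB consensus.
Cxcl9: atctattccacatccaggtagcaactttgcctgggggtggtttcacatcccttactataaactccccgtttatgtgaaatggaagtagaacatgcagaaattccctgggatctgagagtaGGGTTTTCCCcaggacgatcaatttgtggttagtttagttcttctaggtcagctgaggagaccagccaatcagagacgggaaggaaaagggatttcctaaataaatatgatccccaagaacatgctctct
Cxcl10: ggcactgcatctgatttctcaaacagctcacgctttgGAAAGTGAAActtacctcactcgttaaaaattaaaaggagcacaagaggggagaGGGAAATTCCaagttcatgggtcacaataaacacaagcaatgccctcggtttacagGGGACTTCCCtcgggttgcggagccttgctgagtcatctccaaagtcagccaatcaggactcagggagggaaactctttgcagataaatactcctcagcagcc
Cxcr3: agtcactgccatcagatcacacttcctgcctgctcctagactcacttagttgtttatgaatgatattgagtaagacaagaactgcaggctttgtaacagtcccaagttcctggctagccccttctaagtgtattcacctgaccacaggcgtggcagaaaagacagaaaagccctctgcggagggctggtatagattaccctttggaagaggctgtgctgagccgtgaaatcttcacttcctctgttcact
The Cxcl10 window held 1 response element core, GAAAGTGAAA, upstream of its 2 kappaB matches, which begin 159 and 103 bases before the start. The Cxcl9 window held 1 kappaB match, GGGTTTTCCC, beginning 130 bases before the start. The kappaB consensus was taken by name, and its letters are not given here. No capitals appear in the Cxcr3 window, and no gamma-activated site of these letters was found in any of the 3 windows. Of 32851 mouse windows of the same length, 2.98% held the response element core, 7.02% the gamma-activated site and 3.31% the kappaB consensus. The matches did not overlap one another, and a match is a stretch of letters and not a measured binding site. Whether the matches bear on how the genes varied from lung to lung was not tested, and no Cxcl11 window was available.

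Cxcl9, known as the monokine induced by interferon-gamma, had its 2 highest day 97 group means in the repeat-dose groups. Its log2 level in the 4 AAV-hSPB repeat lungs was 7.66, 8.76, 9.79 and 10.42, and in the 4 AAV-hSPBTLR9i repeat lungs it was 8.38, 9.11, 9.04 and 8.89. In the on-doxycycline lungs it was 5.74, 3.94, 7.07 and 3.02, and in the off-doxycycline lungs 5.61, 5.95, 5.15 and 4.18. Every repeat-dose lung lay above every lung without vector, and on-doxycycline replicates 2 and 4 were not above background. After a single dose the log2 level was 5.60, 6.39, 6.34 and 6.16 with AAV-hSPB and 6.40, 6.76, 7.72 and 6.70 with AAV-hSPBTLR9i. The lungs of these single-dose groups did not overlap each other, although the difference between them did not pass the test (1.55% of the panel was higher without overlap), and the highest AAV-hSPBTLR9i single lung lay just above the lowest AAV-hSPB repeat lung.

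Against the on-doxycycline group, Cxcl9 rose by 4.21 ± 0.67 log2 units (standard error; 18.5-fold, 95% interval 7.07 to 48.6) in the AAV-hSPB repeat group, with a limma adjusted p of 0.000146. It rose by 3.91 ± 0.67 log2 units in the AAV-hSPBTLR9i repeat group (15.0-fold, 95% interval 5.74 to 39.5), with a limma adjusted p of 0.000648. In both comparisons this was the largest log2 rise of the 773 genes. In the order of group means, AAV-hSPB repeat (9.16 ± 1.21, SD, n = 4) was followed by AAV-hSPBTLR9i repeat (8.86 ± 0.33), AAV-hSPBTLR9i single (6.90 ± 0.57), AAV-hSPB single (6.12 ± 0.36), off-doxycycline (5.22 ± 0.77) and on-doxycycline (4.95 ± 1.81). The 2 repeat groups overlapped, as did AAV-hSPB single with off-doxycycline and off-doxycycline with on-doxycycline.

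**Figure D1:**
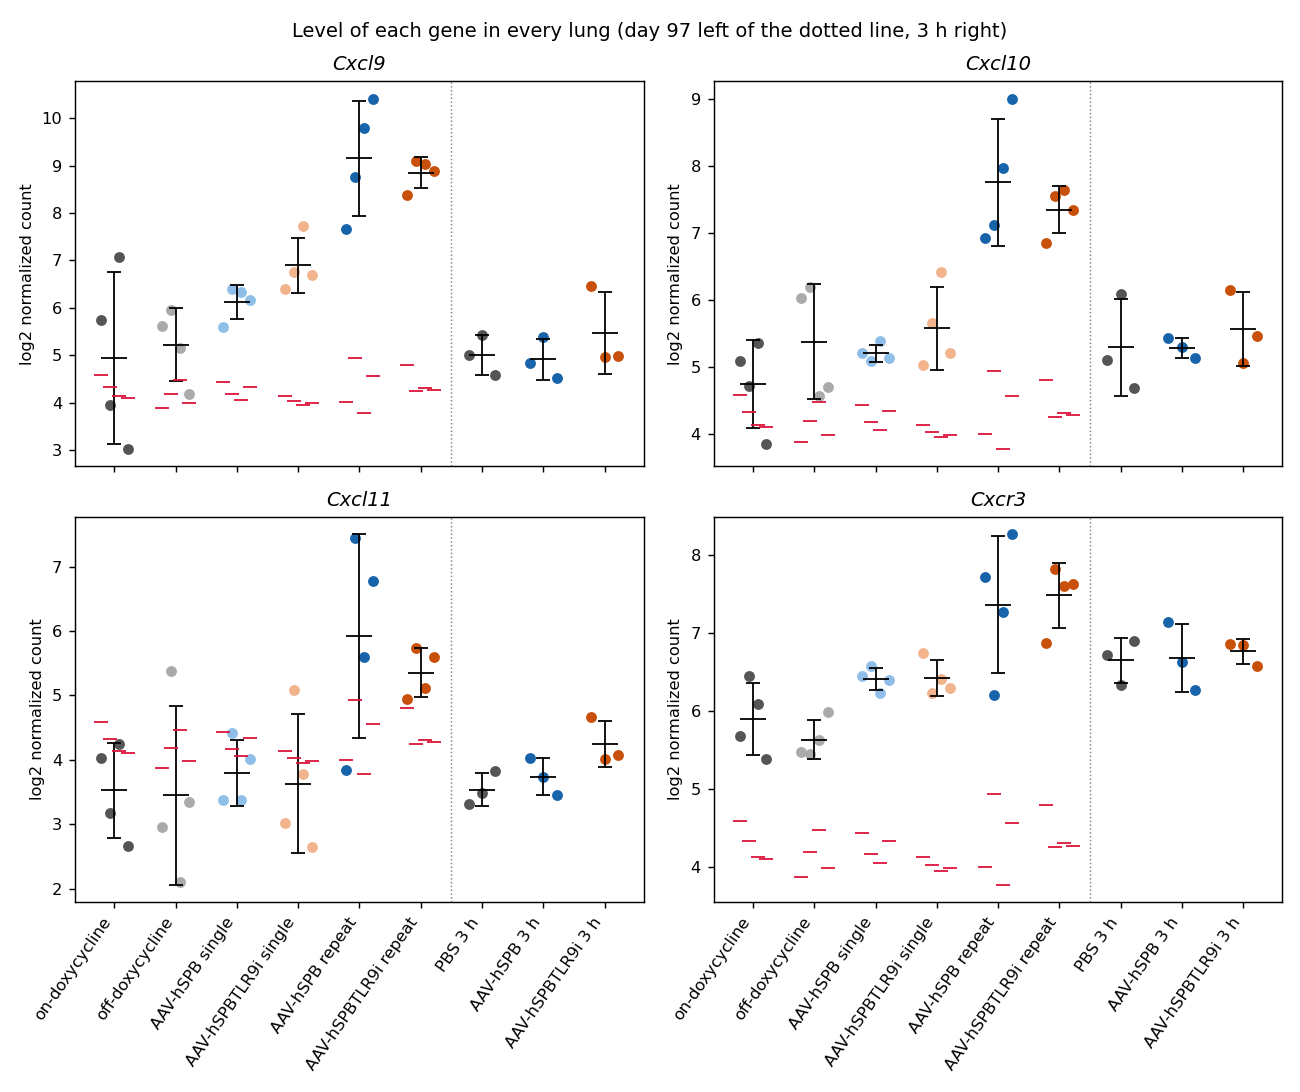
Log2 normalized count (vertical axis) of Cxcl9, Cxcl10, Cxcl11 and Cxcr3 in all 33 lungs, by group (horizontal axis). Each point is a lung, black bars give the mean and SD, and red dashes give the background of each day 97 lung. Cxcl9 in the 8 repeat-dose lungs ran from 7.66 to 10.42, above all 8 lungs without vector.

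Cxcl10, first known as interferon-gamma-induced protein 10, followed the same order at the top. Its log2 level was 6.92, 7.12, 7.96 and 9.00 in the AAV-hSPB repeat lungs and 6.85, 7.54, 7.64 and 7.34 in the AAV-hSPBTLR9i repeat lungs. It was 5.08, 4.71, 5.36 and 3.85 on doxycycline and 6.03, 6.19, 4.57 and 4.70 off it. Repeat-dose lungs did not overlap with lungs of any other day 97 group. Single-dose values were 5.21, 5.08, 5.38 and 5.13 for AAV-hSPB and 5.02, 5.65, 6.42 and 5.20 for AAV-hSPBTLR9i. These overlapped with both groups without vector. Against on-doxycycline lungs, Cxcl10 rose by 3.00 ± 0.44 log2 units after the AAV-hSPB repeat (8.00-fold, 95% interval 4.21 to 15.2, limma adjusted p = 7.64e-05) and by 2.59 ± 0.44 after the AAV-hSPBTLR9i repeat (limma adjusted p = 0.000648).

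Cxcl11, the ligand that binds CXCR3 most tightly, was mostly at or below background outside the repeat groups. Its counts were 11, 126, 51 and 121 in the AAV-hSPB repeat lungs and ran from 36 to 78 in the AAV-hSPBTLR9i repeat lungs. In each of the other 4 day 97 groups 1 of 4 lungs was above background, against 3 of 4 in the AAV-hSPB repeat group and 4 of 4 in the AAV-hSPBTLR9i repeat group. On the log2 scale the AAV-hSPB repeat lungs stood at 3.84, 7.45, 5.60 and 6.78 and the AAV-hSPBTLR9i repeat lungs at 4.94, 5.74, 5.12 and 5.60. The first set spread widely, and its lowest lung fell among the lungs without vector. Cxcl11 rose by 2.39 ± 0.70 log2 units in the AAV-hSPB repeat group over on-doxycycline lungs, with a limma adjusted p of 0.0164. That call was lost when only these 2 groups were fitted (adjusted p = 0.0728) and without AAV-hSPB repeat replicate 2 (0.0596), AAV-hSPB repeat replicate 4 (0.0552) or on-doxycycline replicate 4 (0.0612). The AAV-hSPBTLR9i repeat difference was 1.82 ± 0.70 log2 units and did not pass (limma adjusted p = 0.0967), although its lungs did not overlap with on-doxycycline lungs.

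Cxcr3, the receptor, was above background in all 24 day 97 lungs. Its log2 level was 7.71, 6.20, 7.27 and 8.26 in the AAV-hSPB repeat lungs and 6.87, 7.81, 7.60 and 7.63 in the AAV-hSPBTLR9i repeat lungs. On doxycycline it was 5.68, 6.44, 6.09 and 5.38, and off doxycycline 5.47, 5.45, 5.63 and 5.98. AAV-hSPB repeat replicate 2, the lung with the highest Cxcl11, had the lowest Cxcr3 of its group and fell within the on-doxycycline range. Cxcr3 rose by 1.47 ± 0.31 log2 units after the AAV-hSPB repeat (limma adjusted p = 0.0019) and by 1.58 ± 0.31 after the AAV-hSPBTLR9i repeat (limma adjusted p = 0.0021), both against on-doxycycline lungs. With only the AAV-hSPB repeat and on-doxycycline groups fitted, the first of these had an adjusted p of 0.0632. Single-dose lungs ran from 6.23 to 6.57 with AAV-hSPB and from 6.23 to 6.74 with AAV-hSPBTLR9i, above all 4 off-doxycycline lungs. The difference of both single-dose groups from off-doxycycline was 0.78 ± 0.27 log2 units and did not pass (limma adjusted p = 0.111), where 0.388% of the panel passed and 2.72% was higher without overlap. Limma and voom each called 0 of 4 in this comparison, and Cxcr3 and Cxcl9 had an unadjusted p under 0.05, as did 18.8% of the panel in this direction.

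Counted together, all 4 genes rose in the AAV-hSPB repeat group against on-doxycycline, where 23.3% of the panel rose, and 2 of 4, Cxcl9 and Cxcl10, did so without overlap, as 18.2% of the panel did. In the AAV-hSPBTLR9i repeat group 3 of 4 rose, where 11.0% of the panel did, and the lungs of all 4 did not overlap, as for 18.1% of the panel. These comparisons share the on-doxycycline lungs, so they are not independent. Against off-doxycycline lungs, all 4 rose in both repeat groups combined, where 23.4% of the panel rose, by 3.78 ± 0.58 log2 units for Cxcl9, 2.17 ± 0.38 for Cxcl10, 2.19 ± 0.61 for Cxcl11 and 1.78 ± 0.27 for Cxcr3. For 3 of the 4, Cxcl11 being the exception, no lung overlapped, as for 9.7% of the panel. The median log2 difference over all genes was 0.15, 0.11 and 0.13 in these 3 comparisons. Centring each lung on its median gene lowered every difference by 0.23, 0.20 and 0.18 log2 units and kept all these calls. Without on-doxycycline replicate 1, the rise in the AAV-hSPB repeat group was 4.48 log2 units for Cxcl9, 3.11 for Cxcl10, 2.56 for Cxcl11 and 1.39 for Cxcr3, and all 4 still passed.

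**Figure D2:**
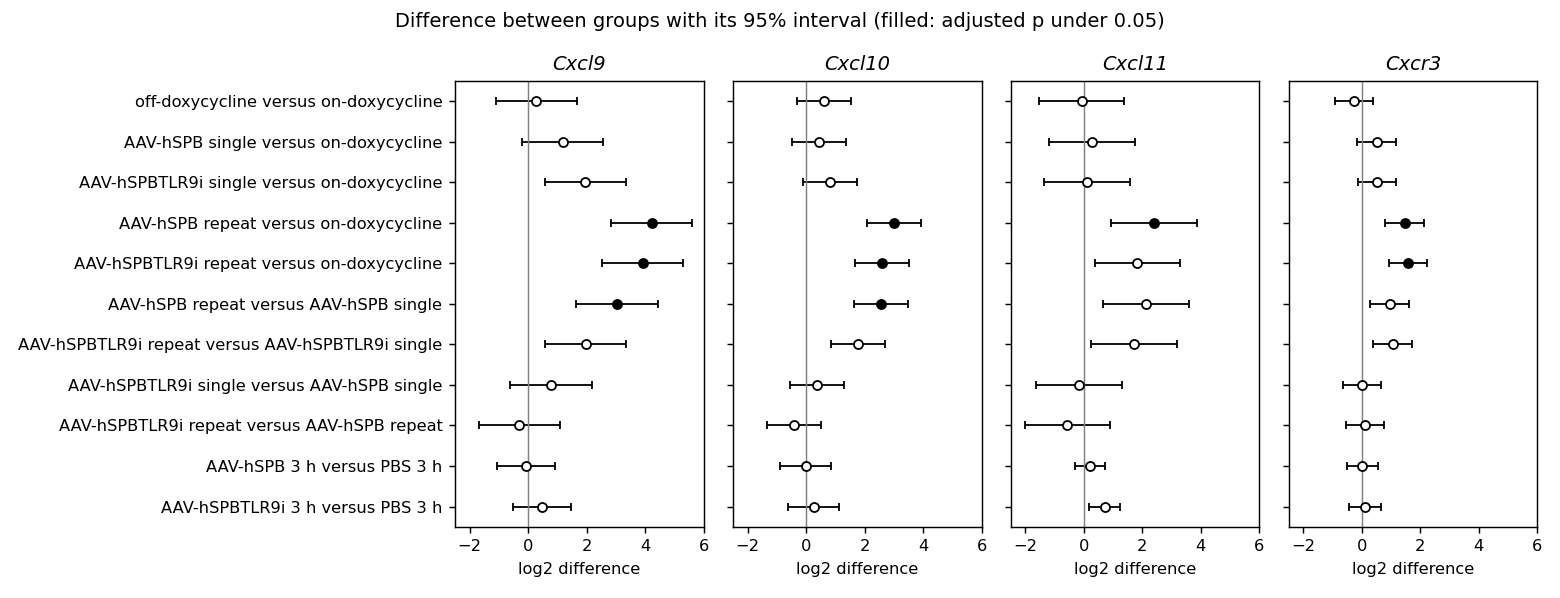
Log2 difference (horizontal axis) between the groups named on the vertical axis, with the 95% interval from limma, for each gene. Filled points had an adjusted p under 0.05, and for Cxcl9 these are the 2 repeat groups against on-doxycycline and the AAV-hSPB repeat group against the single dose.

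The second dose was compared with the single dose of the same vector. With AAV-hSPB, Cxcl9 rose by 3.04 ± 0.67 log2 units (limma adjusted p = 0.0078) and Cxcl10 by 2.55 ± 0.44 (limma adjusted p = 0.0012), so 2 of 4 rose where 6.73% of the panel did, both without overlap, as for 10.3% of the panel. Cxcl11 differed by 2.12 ± 0.70 (limma adjusted p = 0.0731) and Cxcr3 by 0.96 ± 0.31 (limma adjusted p = 0.0721). Leaving out 1 lung gave each a call, Cxcl11 without AAV-hSPB repeat replicate 1 (2.81 log2 units, adjusted p = 0.0184) and Cxcr3 without AAV-hSPB repeat replicate 2 (1.34 log2 units, adjusted p = 0.0027). Over all lungs left out in turn the differences ran from 1.61 to 2.81 for Cxcl11 and from 0.66 to 1.34 for Cxcr3. With AAV-hSPBTLR9i none of the 4 passed in limma, where 0.388% of the panel rose. All 4 had an unadjusted p under 0.05, as did 6.08% of the panel in this direction, and voom also called 0. The differences were 1.96 ± 0.67 for Cxcl9, 1.77 ± 0.44 for Cxcl10, 1.72 ± 0.70 for Cxcl11 and 1.06 ± 0.31 for Cxcr3. Lungs did not overlap for Cxcl9, Cxcl10 and Cxcr3, as for 6.47% of the panel in this direction. With these 2 groups fitted alone, Cxcl9 (adjusted p = 0.0269) and Cxcl10 (0.0457) passed. Single-dose and repeat-dose lungs differ in the time since the last dose as well as in the number of doses, so these cannot be told apart. With AAV-hSPB the single and repeat groups are also listed in different sets of 12 rows. With AAV-hSPBTLR9i both are listed in the same set.

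The AAV-hSPB repeat group was also set against the AAV-hSPBTLR9i single group, which is listed in the same 12 rows of the table, a comparison chosen after seeing the data. Cxcl10 was higher by 2.18 ± 0.44 log2 units (limma adjusted p = 0.0081) and Cxcl9 by 2.26 ± 0.67 (limma adjusted p = 0.0475), where 5.82% of the panel was higher. Cxcl10 alone of the 4 did not overlap, as for 10.1% of the panel. The Cxcl9 call was lost with either other scaling, with adjusted p of 0.0585 for the median gene and 0.066 for all 12 reference genes. With the compared groups alone neither passed, at 0.144 for Cxcl9 and 0.141 for Cxcl10.

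The vectors were compared at the same number of doses. None of the 4 genes passed between AAV-hSPBTLR9i and AAV-hSPB in limma, after a single dose or after the repeat, and 0.0% of the panel passed in either. None had an unadjusted p under 0.05, against 1.03% of the panel after a single dose and 6.6% after the repeat, and voom called 0. After the repeat the difference, AAV-hSPBTLR9i minus AAV-hSPB, was -0.30 log2 units for Cxcl9 (95% interval -1.69 to 1.09), -0.41 for Cxcl10 (-1.34 to 0.52), -0.57 for Cxcl11 (-2.03 to 0.89) and 0.11 for Cxcr3 (-0.54 to 0.77). After a single dose it was 0.77 for Cxcl9 (-0.62 to 2.16), 0.38 for Cxcl10 (-0.55 to 1.30), -0.17 for Cxcl11 (-1.63 to 1.29) and 0.01 for Cxcr3 (-0.64 to 0.67). These intervals leave room for differences of over 1 log2 unit in the ligands. The interaction of dose and vector was -1.07 ± 0.94 log2 units for Cxcl9 and -0.79 ± 0.63 for Cxcl10, and no gene of the panel passed in limma (0.0%). None of the 4 had an unadjusted p under 0.05 (3.1% of the panel), and voom called 0.

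A single dose, or 3 days without doxycycline and no vector, gave no call among the 4 genes. All vector groups lost doxycycline at day 7, and no group without vector did. In comparisons of vector groups with groups without vector, the vector and the longer time without doxycycline therefore cannot be told apart. Off against on doxycycline, limma called 0 of 4 and 0.0% of the panel, none of the 4 had an unadjusted p under 0.05 (12.4% of the panel) and voom called 0. The AAV-hSPB single group against on-doxycycline gave the same counts, with 0.0% of the panel past the adjusted and 10.6% past the unadjusted threshold. With AAV-hSPBTLR9i, Cxcl9 differed from on-doxycycline by 1.95 ± 0.67 log2 units (unadjusted p = 0.0084, limma adjusted p = 0.231), where 0.259% of the panel passed and 9.83% was higher at the unadjusted threshold. Limma and voom each called 0 of 4 here. Without on-doxycycline replicate 3, whose Cxcl9 level of 7.07 was the highest of its group, this difference was 2.66 and passed (adjusted p = 0.0302).

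At 3 h limma called none of the 4 genes in any of the 3 comparisons, and 0.0% of the panel, and voom called 0. Cxcl9 stood at 5.00, 5.42 and 4.58 after PBS, at 4.84, 5.38 and 4.52 after AAV-hSPB and at 6.47, 4.96 and 4.98 after AAV-hSPBTLR9i. AAV-hSPBTLR9i replicate 1 was thus the highest of the 9 lungs, and the other lungs of its group fell within the PBS range. In AAV-hSPBTLR9i against PBS, Cxcl11 differed by 0.71 ± 0.23 log2 units (limma unadjusted p = 0.0137, limma adjusted p = 0.9999), and 1.29% of the panel was higher at the unadjusted threshold of 0.05. In the other comparisons none of the 4 reached that threshold, against 2.2% of the panel for AAV-hSPB over PBS and 1.55% between the vectors. The Cxcl11 log2 levels of AAV-hSPBTLR9i and PBS lungs did not overlap, at 4.01 to 4.66 against 3.31 to 3.82, as for 3.75% of the panel in this direction, while the counts before normalization did, at 15 to 24 against 9 to 16. Cxcr3 lay between 6.33 and 6.90 with PBS, between 6.27 and 7.14 with AAV-hSPB and between 6.58 and 6.86 with AAV-hSPBTLR9i, and all 3 groups overlapped. Cxcl10 lay between 4.68 and 6.09 with PBS, between 5.13 and 5.43 with AAV-hSPB and between 5.06 and 6.15 with AAV-hSPBTLR9i. The 3 h and day 97 tables were normalized apart, so their levels were not compared.

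Within groups, Cxcl9 and Cxcl10 rose and fell together from lung to lung. Deviations from the group means over the 24 day 97 lungs gave a Pearson r of 0.81 (adjusted p = 0.00012) and a Spearman rho of 0.856 (adjusted p = 0.00054), by permutation within groups and adjusted over 6 pairs. Without the 2 lungs farthest out in Cxcl9, r was 0.826. Cxcl9 with Cxcl11 gave r = 0.52 (rho = 0.55) and Cxcl10 with Cxcl11 gave r = 0.529 (rho = 0.509), with permutation adjusted p of 0.0822 and 0.138. Without AAV-hSPB repeat replicate 2, a lung left out after seeing the data, these r were 0.619 and 0.717, each with a permutation adjusted p of 0.0166. Cxcr3 gave r of 0.17 with Cxcl9, 0.318 with Cxcl10 and -0.175 with Cxcl11, and none of these passed.

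**Figure D3:**
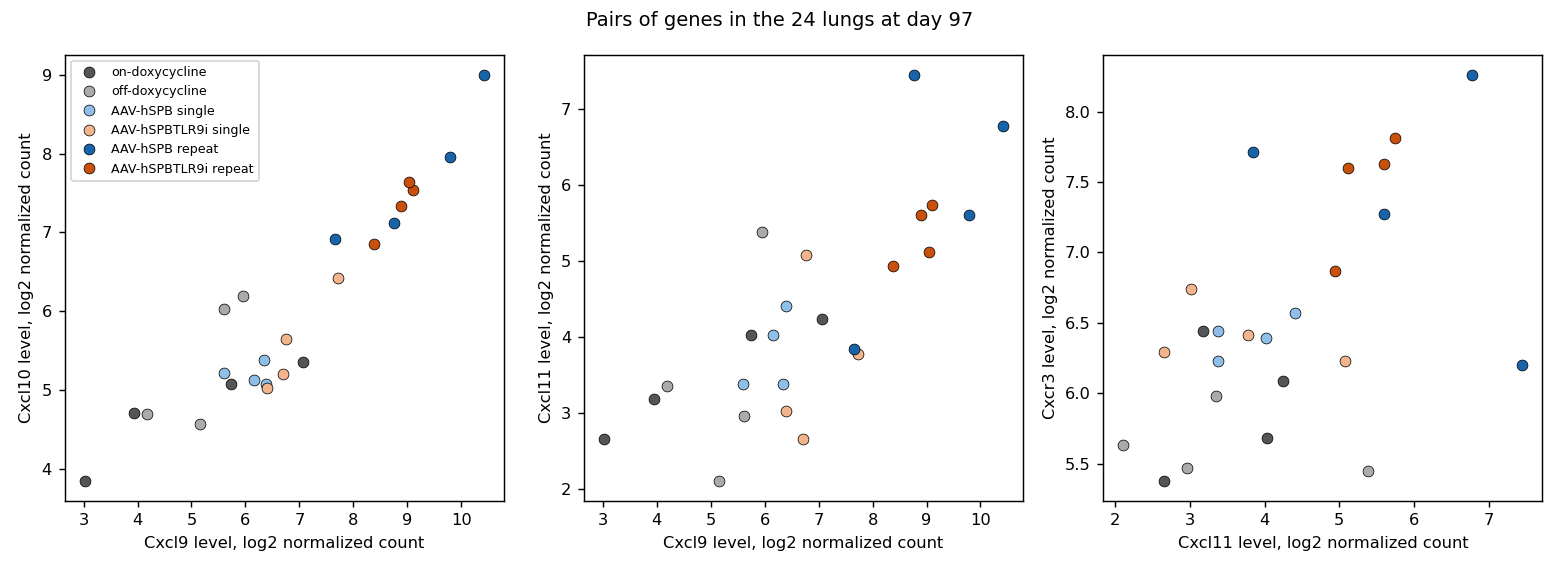
Log2 normalized counts of Cxcl10 against Cxcl9, Cxcl11 against Cxcl9 and Cxcr3 against Cxcl11 in the 24 lungs at day 97, each point a lung coloured by group. In the third panel AAV-hSPB repeat replicate 2 lies at the right with a Cxcl11 level of 7.45 and a Cxcr3 level of 6.20.

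Cxcr3 was set beside T cell markers, since in bulk lung RNA fewer cells of a type and less RNA per cell cannot be told apart. The summed log2 level of Cd3d, Cd3e, Cd3g and Cd2, parts of the T cell receptor complex and a T cell adhesion protein, ran from 9.96 to 10.47 on doxycycline, from 10.17 to 11.13 in the AAV-hSPB repeat lungs and from 10.47 to 10.96 in the AAV-hSPBTLR9i repeat lungs. AAV-hSPB repeat replicate 2 had the lowest sum of its group, as it had the lowest Cxcr3. Cxcr3 minus this sum, a measure chosen after seeing the data, was higher by 0.95 log2 units in the AAV-hSPB repeat group than on doxycycline (exact permutation p = 0.0571, adjusted 0.0571). It was higher by 1.18 in the AAV-hSPBTLR9i repeat group than on doxycycline, by 0.70 in AAV-hSPB repeat than single and by 0.90 in AAV-hSPBTLR9i repeat than single, each with an exact permutation p of 0.0286 (adjusted 0.0381), the smallest that 70 arrangements allow. The sum itself was also higher in these 4 comparisons, by 0.51, 0.40, 0.25 and 0.16 log2 units in the order given. Its exact permutation p was 0.1143, 0.0286, 0.3143 and 0.3429, with adjusted values from 0.114 to 0.343. The p of 0.0286, for AAV-hSPBTLR9i repeat against on-doxycycline, was again the smallest that 70 arrangements allow. The sum was not tested against off-doxycycline lungs, where it ran from 9.86 to 10.29. The NK cell markers Ncr1, Klrd1 and Eomes had a summed log2 level of 8.44 to 9.13 on doxycycline. It ran from 8.94 to 9.87 in AAV-hSPB repeat and from 8.70 to 9.32 in AAV-hSPBTLR9i repeat lungs. After a single dose it was 9.03 to 9.83 with AAV-hSPB and 9.02 to 9.93 with AAV-hSPBTLR9i. B cell markers varied too, with a summed log2 level of 8.83 to 10.51 on doxycycline and 10.87 to 11.17 in the AAV-hSPBTLR9i repeat lungs. In B cell markers the other vector groups overlapped with on-doxycycline lungs. They ran from 10.13 to 11.46 for AAV-hSPB repeat, 9.99 to 10.98 for AAV-hSPB single and 9.92 to 10.90 for AAV-hSPBTLR9i single. The part of NK or B cell markers in the result was not tested.

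**Figure D4:**
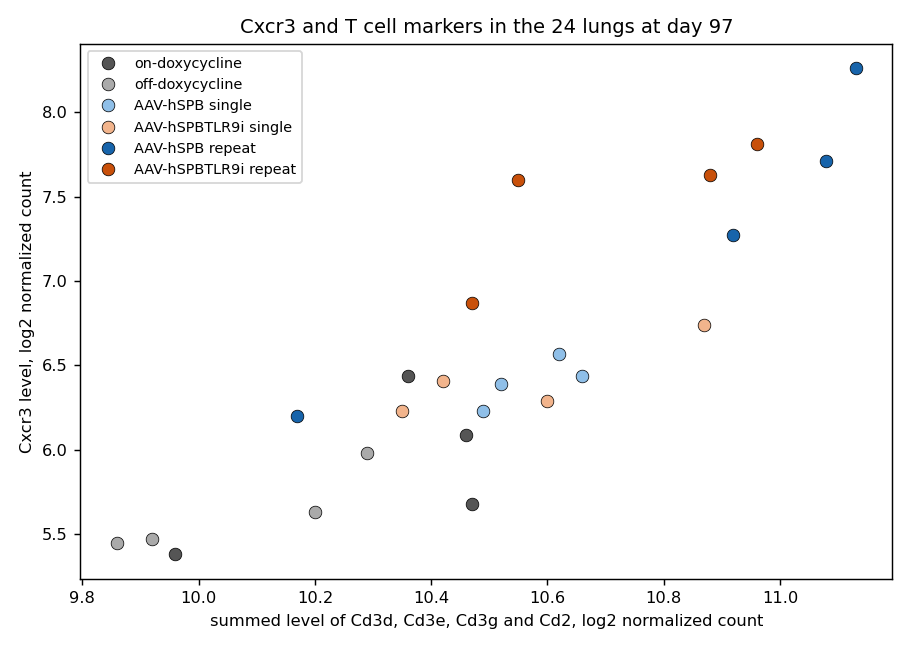
Cxcr3 level (vertical axis) against the summed level of Cd3d, Cd3e, Cd3g and Cd2 (horizontal axis), both as log2 normalized counts, in the 24 lungs at day 97. Each point is a lung coloured by group, and Cxcr3 spans 5.38 to 8.26 while the marker sum spans 9.86 to 11.13.

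The genes whose levels followed each of the 4 most closely over the 24 day 97 lungs were ranked by Pearson r among 769 others, as a description, since these lungs share groups and normalization. Those close to Cxcl9 included Ccl8 (r = 0.881), a monocyte chemokine, Lag3 (0.865), an inhibitory receptor of activated T cells, Irf4 (0.856) and Hsp90b1 (0.856). Cxcl10 was followed by Tigit (0.883), Lat2 (0.871), Zbp1 (0.865), a nucleic acid sensor that interferon induces, Xbp1 (0.862) and Hsp90b1 (0.861). For Cxcl11 the genes were Hsp90b1 (0.854), Aif1 (0.842), Ccl1 (0.818), Xbp1 (0.804) and Itln1 (0.776). For Cxcr3 they were Lax1 (0.956), Irf4 (0.919), Cd28 (0.901), the T cell costimulatory receptor, Cd3g (0.892) and Ccr6 (0.885). Over the 9 lungs at 3 h the r of Hsp90b1 was -0.77 with Cxcl9, -0.634 with Cxcl10 and -0.402 with Cxcl11, opposite in sign to day 97, and that of Lax1 with Cxcr3 was 0.479.

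On the interferon-gamma route to the ligands, Socs1, a feedback inhibitor of cytokine signalling, rose by 0.75 ± 0.21 log2 units in the AAV-hSPB repeat group against on-doxycycline (limma adjusted p = 0.0105) and Rela, an NF-kappaB subunit, by 0.48 ± 0.15 (limma adjusted p = 0.0217). Most of the 11 genes of this route did not pass there, and 23.3% of the panel rose. Neither Socs1 nor Rela passed in the AAV-hSPBTLR9i repeat group, with means of 4.66 and 8.91 against 4.49 and 8.65 on doxycycline. Nor did either pass between repeat and single dose of the same vector. Ifng itself was low, at 6 to 15 counts on doxycycline, 2 to 34 in the AAV-hSPB repeat lungs and 22 to 38 in the AAV-hSPBTLR9i repeat lungs, and was above background in 0, 3 and 2 of 4 lungs. Its differences from on-doxycycline were 0.61 ± 0.46 and 1.30 ± 0.46 log2 units and did not pass (limma adjusted p = 0.3508 and 0.0706). Irf1, a transcription factor that interferon-gamma induces, differed by 0.34 in each and did not pass. Rela no longer passed under either rescaling, by the median gene of each lung or by all 12 reference genes.

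On the type I interferon route, 6 of 12 genes rose and 0 fell in the AAV-hSPB repeat group against on-doxycycline, where 23.3% of the panel rose. The list's median difference was 0.60 log2 units against 0.15 over all genes. Stat2 rose by 0.66, Tyk2 by 0.99 and Irf9 by 0.68 log2 units, genes whose proteins act together below the type I interferon receptor. In the AAV-hSPBTLR9i repeat group 2 of 12 passed, where 11.0% of the panel rose, with a median of 0.37 against 0.11 over all genes. Stat2 rose by 0.42 log2 units, and Ifna4 passed the test but was above background in 0 of 4 lungs of every day 97 group, at 11 to 17 counts against 2 to 7 on doxycycline. Among 11 genes of cytokines that raise interferon-gamma or of their receptors, 3 rose and 1 fell after the AAV-hSPB repeat. The share that rose was near the 23.3% of the panel. Il12rb1, an interleukin-12 receptor subunit, was higher in the test, at 18 to 28 counts and above background in 3 of 4 lungs, against 7 to 11 counts and 0 of 4 lungs on doxycycline. Il18, whose protein raises interferon-gamma, fell by 0.77 log2 units. In the AAV-hSPBTLR9i repeat group 1 of these 11 rose, Ebi3, an interleukin-27 subunit, by 0.73, a share near the 11.0% of the panel.

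Against on-doxycycline, 5 of 21 genes of T helper 1, CD8 T and NK cells rose and 0 fell in the AAV-hSPB repeat group. In the AAV-hSPBTLR9i repeat group 3 rose and 0 fell. These shares were near the 23.3% and 11.0% of the panel that rose. Median differences of the 21 genes were 0.52 and 0.32 log2 units, against 0.15 and 0.11 over all genes. Xcl1, a chemokine of activated CD8 T and NK cells, rose by 1.41 and 0.96, Cd4 by 0.76 and 0.82 and the chemokine receptor Cxcr6 by 0.82 in each. Cd8a passed in the AAV-hSPB repeat group, at 11 to 43 counts and above background in 3 of 4 lungs, against 7 to 25 counts and 1 of 4 lungs on doxycycline. Of 22 other chemokines 2 rose in each group, a share below the 23.3% of the panel for AAV-hSPB and near the 11.0% for AAV-hSPBTLR9i. The median differences of this list were 0.47 and 0.26 log2 units, against 0.15 and 0.11 over all genes. Ccl8 rose by 2.57 ± 0.59 and 2.85 ± 0.59 log2 units, joined by Ccl12 (1.49) after AAV-hSPB and by Ccl20 (1.72) after AAV-hSPBTLR9i. Of 14 other chemokine receptors 4 and 2 rose, against the same 23.3% and 11.0%, with Cx3cr1 higher by 0.98 and 0.94 and Ccr6 by 0.87 and 0.98 in the respective groups. Against off-doxycycline lungs, 8 of the 21 T helper 1, CD8 T and NK cell genes rose and 0 fell in both repeat groups combined. There 23.4% of the panel rose, and the list's median was 0.35 log2 units against 0.13 over all genes. All 8 still passed under either rescaling. Cd4, Cxcr6, Xcl1 and Cd3g, the 4 with the smallest p, averaged 6.57, 6.44, 4.14 and 7.79 off doxycycline. On doxycycline they averaged 7.09, 6.93, 4.3 and 8.18, and these lungs overlapped. In the same comparison 7 of 12 type I interferon genes rose and 0 fell. Of 11 genes of the cytokine list 3 rose and 2 fell, and of 14 other chemokine receptors 5 rose and 1 fell. Of 22 other chemokines 4 rose and 3 fell, with a median of -0.10 log2 units.

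With each lung centred on its median gene no list gene that had passed changed sign, but calls were lost and new lower calls appeared. After the AAV-hSPB repeat, 3 of 6 type I interferon genes, 2 of 4 genes of the cytokine list and 3 of 5 T and NK cell genes still passed. So did 1 of 2 chemokines and 3 of 4 chemokine receptors. After the AAV-hSPBTLR9i repeat, 1 of 2 type I interferon genes, 0 of 1 genes of the cytokine list and 0 of 3 T and NK cell genes still passed. So did 1 of 2 chemokines and 2 of 2 chemokine receptors. Ebi3, Xcl1, Cd4, Cxcr6 and Stat2 were thus no longer called in the latter group. With this centring, 2 of 11 interferon-gamma route genes fell after the AAV-hSPB repeat, where 0 had fallen before. So did 2 genes of the cytokine list in place of 1, and 1 chemokine and 2 chemokine receptors in place of 0. Over the panel 119 of 773 genes then fell. After the AAV-hSPBTLR9i repeat 1 interferon-gamma route gene fell, as did 37 of the 773.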

How the data were processed

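Right-lung RNA was counted by nCounter, per the labels. The authors deposited tables of log2 normalized counts, 1 for day 97 and 1 for 3 h, and a series matrix of linear signal values, used for day 97 only as an alternative (9 columns of it were not used). Software, background treatment and reference genes are not given in the sources used here. From the values, the day 97 log2 table was scaled to 6 reference genes and the matrix to all 12. The scaling of the 3 h table was not examined. Whole counts, within 0.05, were recovered for 100% of linear values and gave depths, which limit low genes such as Cxcl11. Background was the mean plus 2 SD of the 8 dimmest control probes.

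All groups of a table were fitted with limma 3.58.1 in R 4.3.3 on the log2 values of 773 genes, unfiltered, with Benjamini-Hochberg adjustment over the panel and a threshold of 0.05, in 15 comparisons. The fit was tested on simulated data. Correlations used 100000 permutations within groups. Python 3.11.15 made tables and figures. Genes named were the members, Ifng, Irf1, the 5 genes closest to each member by Pearson r, and up to 4 genes with the smallest p from each of 6 lists per comparison, plus marker genes, and 1 gene this rule takes in is not reported here. The members and lists were chosen with earlier results of these data known. Alternatives were other scalings, the matrix values, a background floor, a filter, sex, a trended robust prior, the compared groups alone, voom, and lungs left out. Promoter windows are from RefSeq, GRCm38.p6, which matched 3 of 4 members.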

Additional observations from a re-analysis of the deposited data

How the results depend on the processing

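Of 1004 values of the 4 genes under alternatives to the 15 comparisons, 989 stayed on the same side of the threshold, 6 lost a call and 9 gained one. No called value changed sign, while 51 values called under neither setting did. With the compared groups fitted alone, 2 genes in place of 4 were called for AAV-hSPB repeat versus on-doxycycline, 2 in place of 0 for AAV-hSPBTLR9i repeat versus single, and 1 in place of 0 for both single-dose groups versus off-doxycycline (Cxcr3, adjusted p = 0.0369). This fit has fewer lungs to estimate the spread. Leaving out each lung in turn gave 0 to 1 genes called for AAV-hSPBTLR9i single versus on-doxycycline. Raising values at background to it gave Cxcl11 a call for AAV-hSPB repeat versus single (1.65 log2 units, adjusted p = 0.0445). Without AAV-hSPB repeat replicate 2, the within-group r was 0.619 for Cxcl9 with Cxcl11 and 0.717 for Cxcl10 with Cxcl11, both then past the threshold, and the cause was not tested. Over all genes, AAV-hSPB repeat versus on-doxycycline had 180 higher and 23 lower calls, against 98 and 119 with each lung centred on its median gene and 114 and 73 with all 12 reference genes, and the compared groups alone gave 80 higher and 4 lower. For AAV-hSPBTLR9i repeat versus on-doxycycline, 85 higher and 4 lower became 53 and 37 with the median gene. For AAV-hSPB repeat versus single, 52 and 4 became 27 and 21 with all 12 reference genes, and the compared groups alone gave 12 calls in place of 56. For both repeat groups versus off-doxycycline, 181 and 40 became 111 and 105 with the median gene. The filter on the lowest 25% of genes removed Cxcl10 and Cxcl11 at day 97 and all 4 genes at 3 h, so it gave no value there. No paired analysis was possible because the labels give no replicate numbers that groups share. Counts as low as 2 for Ifng and 4 for Cxcl11 leave little depth to measure their differences.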
